A study of Mus musculus with 6 samples.

Results

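The glutathione and antioxidant enzymes described here are the genes of the glutathione transferase, glutathione peroxidase, peroxiredoxin and thioredoxin reductase families, together with the superoxide dismutases, catalase, haem oxygenase 1, Nqo1, the enzymes that make and recycle glutathione, sulfiredoxin and the mitochondrial transhydrogenase Nnt. They were chosen by gene symbol from the platform annotation, and where a gene had several probe sets the one with the highest mean over all arrays was taken. The rule gave 50 genes of the 19938 measured, and all 50 were tested, with no filter on low values. Of these, 49 are protein-coding genes in the reference table and 1, Prdx6-ps2, is a pseudogene. Gsta1, Gsta2 and Gstp2 share their probe sets with other genes in the annotation and were not analysed here. Prdx5 and Prdx6 are not among the 50 genes either, so the peroxiredoxin family is not complete.

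RNA came from frozen skeletal muscle of 6 mice, 3 labelled transgenic (TG) and 3 labelled wild type (WT), and was hybridised to Affymetrix MoGene arrays with 1 array per mouse. The title of the series names SOCS-3 and muscle. The labels state neither what the transgene carries nor its promoter, and they give no strain, age, sex or name of the muscle. Values are log2 expression, so a difference of 1 is a doubling, and every difference below is TG minus WT.

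Cells meet superoxide and peroxides as by-products of respiration, and contracting muscle makes both. Superoxide dismutases turn superoxide into hydrogen peroxide, which catalase, glutathione peroxidases and peroxiredoxins then remove. The peroxidases draw on glutathione or thioredoxin, which are recharged with NADPH, while glutathione transferases attach glutathione to reactive lipids and foreign compounds. Many of these genes are targets of the transcription factor NRF2 (Nfe2l2), which KEAP1 holds in check and which binds an antioxidant response element.

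The arrays had medians between 5.98 and 6.04. Of 12 skeletal muscle markers, 11 had a mean above the 95th percentile of all genes. The exception was Myh7, the slow myosin heavy chain gene. Over all genes 1, Casp12, which was lower in TG, passed the threshold of an adjusted p of 0.05 (limma, Benjamini-Hochberg), or 0.00502% of those tested, and none of the 50 antioxidant genes did. Socs3, the gene in the series title, had a difference of -0.26, lower on the arrays labelled TG. Because it does not show which arrays carry a transgene, TG and WT stand here for the labels alone.

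To show the antioxidant response element in these genes, its core TGACNNNGC was searched on both strands in the 250 bases before each annotated start in the RefSeq promoter table (GRCm38.p6). The table held 42 of the 50 genes, and 8 of them (19.0%) had a match, where 11.5% of all 27025 genes in the table did. Gclc, Gsr, Gsta4, Gstt2, Hmox1, Nnt, Prdx6-ps2 and Sod3 were not in it. The matches are printed below with 20 bases on either side, 5′ to 3′ on the strand of the gene, with the core in capitals. In 5 of the 8 the core lies on the opposite strand and so reads as its reverse complement.
Txnrd1: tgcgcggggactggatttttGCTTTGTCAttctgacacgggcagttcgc
Prdx1: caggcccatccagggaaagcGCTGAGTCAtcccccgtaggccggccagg
Gclm: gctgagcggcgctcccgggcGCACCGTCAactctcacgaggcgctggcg
Mgst1: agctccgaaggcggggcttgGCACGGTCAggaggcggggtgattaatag
Sod1: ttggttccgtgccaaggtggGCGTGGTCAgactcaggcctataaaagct
Gstm5: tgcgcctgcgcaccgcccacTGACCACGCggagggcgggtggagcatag
Gstm7: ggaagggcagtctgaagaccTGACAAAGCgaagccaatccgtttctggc
Gsta3: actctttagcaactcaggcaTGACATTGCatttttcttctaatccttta

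These windows lie at chr10:82859094-82859142 (plus strand) for Txnrd1, chr4:116685446-116685494 (plus) for Prdx1, chr3:122245403-122245451 (plus) for Gclm and chr6:138140451-138140499 (plus) for Mgst1. Those of the other genes lie at chr16:90220686-90220734 (plus) for Sod1, chr3:107895792-107895840 (plus) for Gstm5, chr3:107931715-107931763 (minus) for Gstm7 and chr1:21240444-21240492 (plus) for Gsta3. The core starts 92 bases before the annotated start in Txnrd1, 133 in Prdx1, 134 in Gclm and 56 in both Mgst1 and Sod1. It starts 42 bases before it in Gstm5, 129 in Gstm7 and 121 in Gsta3. The 8 genes had log2 differences from -0.28, for Mgst1, to 0.11, for Txnrd1, with a median of -0.054, and the 34 other genes in the table had a median of 0.021. A match is a run of letters and no evidence of binding.

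Across the 50 genes the differences were small and lay on both sides of 0. They ran from -0.57 for Nnt to 0.59 for Hmox1, with 26 above 0 and 24 below and a median of 0.0013, beside a median of -0.016 over all genes. The difference was under 0.1 in size for 30 of the 50 genes and for 62.5% of all genes. The smallest adjusted p among them was 0.710 (limma).

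An unadjusted p under 0.05 (limma) was reached by 6 genes, 2 higher in TG, Mgst2 and Hmox1, and 4 lower, Gpx3, Gpx7, Mgst1 and Gpx4. They were 12.0% of the genes described, where 6.75% of all genes reached that level, 1.96% on the higher and 4.79% on the lower side. Leaving out an array changed the counts. The higher count was 1 without TG array 1, TG array 2 or WT array 2, and the lower count was 2 without TG array 2 or without WT array 3. Gpx3 was the one gene of the 50 that kept an unadjusted p under 0.05 without each array in turn.

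Groups were fully separate for 7 of the 50 genes, or 14.0%, against 12.3% of all genes. In 2 of them, Mgst2 and Prdx3, each TG array lay above each WT array, against 4.52% of all genes. In 5, Gpx3, Gpx4, Gpx7, Mgst1 and Gstm4, each TG array lay below, against 7.76%. Both shares are close to the background, and none of these genes passed over all genes.

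**Figure D1:**
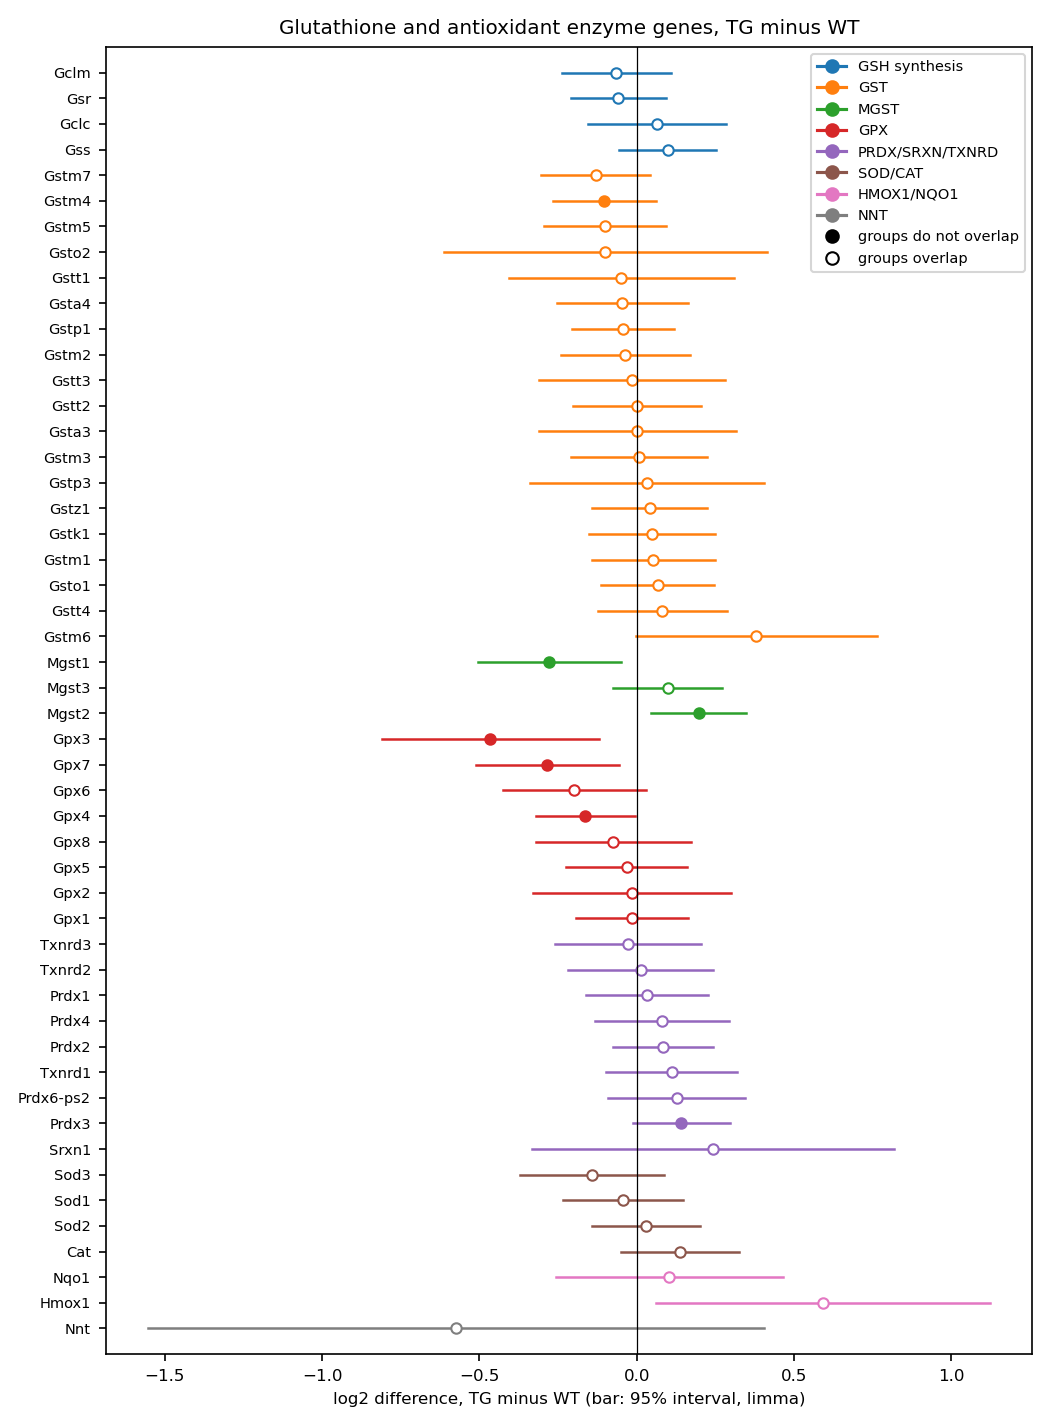
Log2 difference, TG minus WT, of the 50 genes with its 95% interval from limma, coloured by role; filled points mark genes whose TG and WT values do not overlap. All 8 glutathione peroxidases lie left of 0 (Gpx1 and Gpx2 do not with a common array median, nor Gpx2 with quantile normalization), the glutathione transferases cluster around it, and the interval of Nnt is the widest.

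Glutathione peroxidases reduce hydrogen peroxide and lipid peroxides, and all 8 measured genes of the family had differences below 0 in the values as deposited, although Gpx1 and Gpx2 were above 0 with the arrays set to a common median and Gpx2 with quantile normalization. The median was -0.12, and over all genes 56.2% were below 0. The count below 0 was 6 of 8 without TG array 2, TG array 3 or WT array 1, and 7 of 8 without WT array 2 or with the hepatocyte markers described further on as a covariate. Among the 8, Gpx3, Gpx7 and Gpx4 had an unadjusted p under 0.05, all lower, a level that 4.79% of all genes reached on that side.

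Gpx3 encodes the secreted, selenium-containing peroxidase of blood plasma (probe set 10376201). It read 9.24, 9.25 and 9.33 on the TG arrays and 9.75, 10.05 and 9.41 on the WT arrays. The TG values lay close together, while the WT values spread over 0.64, and the lowest WT array stood just above the highest TG array. The means were 9.27 ± 0.05 (SD, n = 3) across TG arrays and 9.74 ± 0.32 (SD, n = 3) across WT arrays, a difference of -0.47 (SE 0.15, 95% interval -0.81 to -0.12), or 1.38-fold lower (limma, adjusted p = 0.710). The difference was -0.31 without WT array 2, the highest, and -0.63 without WT array 3. Fat cells also make Gpx3, and their part in the result was not tested. Of the 9 adipocyte markers measured, 8 were above 0, with mean levels of 6.78 to 6.92 on the TG and 6.63 to 6.68 on the WT arrays. Over all genes 56.2% were below 0. Adipoq alone of the 9, at 0.64, had an unadjusted p under 0.05 (limma).

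Gpx4 encodes the selenoenzyme that reduces peroxides inside membrane lipids and guards cells against ferroptosis. Its probe set 10363000 read 11.84, 11.91 and 11.96 in TG and 12.05, 12.04 and 12.11 in WT. Every TG array lay below every WT array by a small margin. The difference was -0.16 (SE 0.07, 95% interval -0.32 to -0.01), with means of 11.90 ± 0.06 and 12.06 ± 0.04 (SD, 3 arrays per group; limma, adjusted p = 0.738). A second Gpx4 probe set, 10364675, read 11.23, 11.27 and 11.31 in TG and 11.41, 11.41 and 11.47 in WT. It too kept the groups apart, with a difference of -0.16. Both sets report the same RNA samples and are no separate replicates.

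Gpx7, a peroxidase of the endoplasmic reticulum (probe set 10515007), read 6.42, 6.08 and 6.25 in TG and 6.48, 6.52 and 6.61 in WT. The highest TG array came within a short distance of the lowest WT array. Its difference was -0.28 (SE 0.10; limma, adjusted p = 0.710). Gpx8, the other peroxidase of that compartment, was at -0.08 with overlapping groups. Gpx1, the main cytosolic selenoenzyme, was at -0.02 (95% interval -0.19 to 0.16), and its WT arrays lay within 0.028 of each other. Gpx6 was at -0.20, Gpx5 at -0.03 and Gpx2 at -0.02, and their mean signals lay at percentiles 16.7, 4.26 and 22.6 of all genes, where signal over background could not be assessed.

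Of the 50 genes, 7 encode selenoproteins in the mouse, namely Gpx1 to Gpx4 and the 3 thioredoxin reductases, a grouping made after the values were seen. Of these, 2, Gpx3 and Gpx4, stood lower in TG without overlap, as 7.76% of all genes did. The other 5 lay between -0.03 and 0.11, all with overlapping groups.

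**Figure D2:**
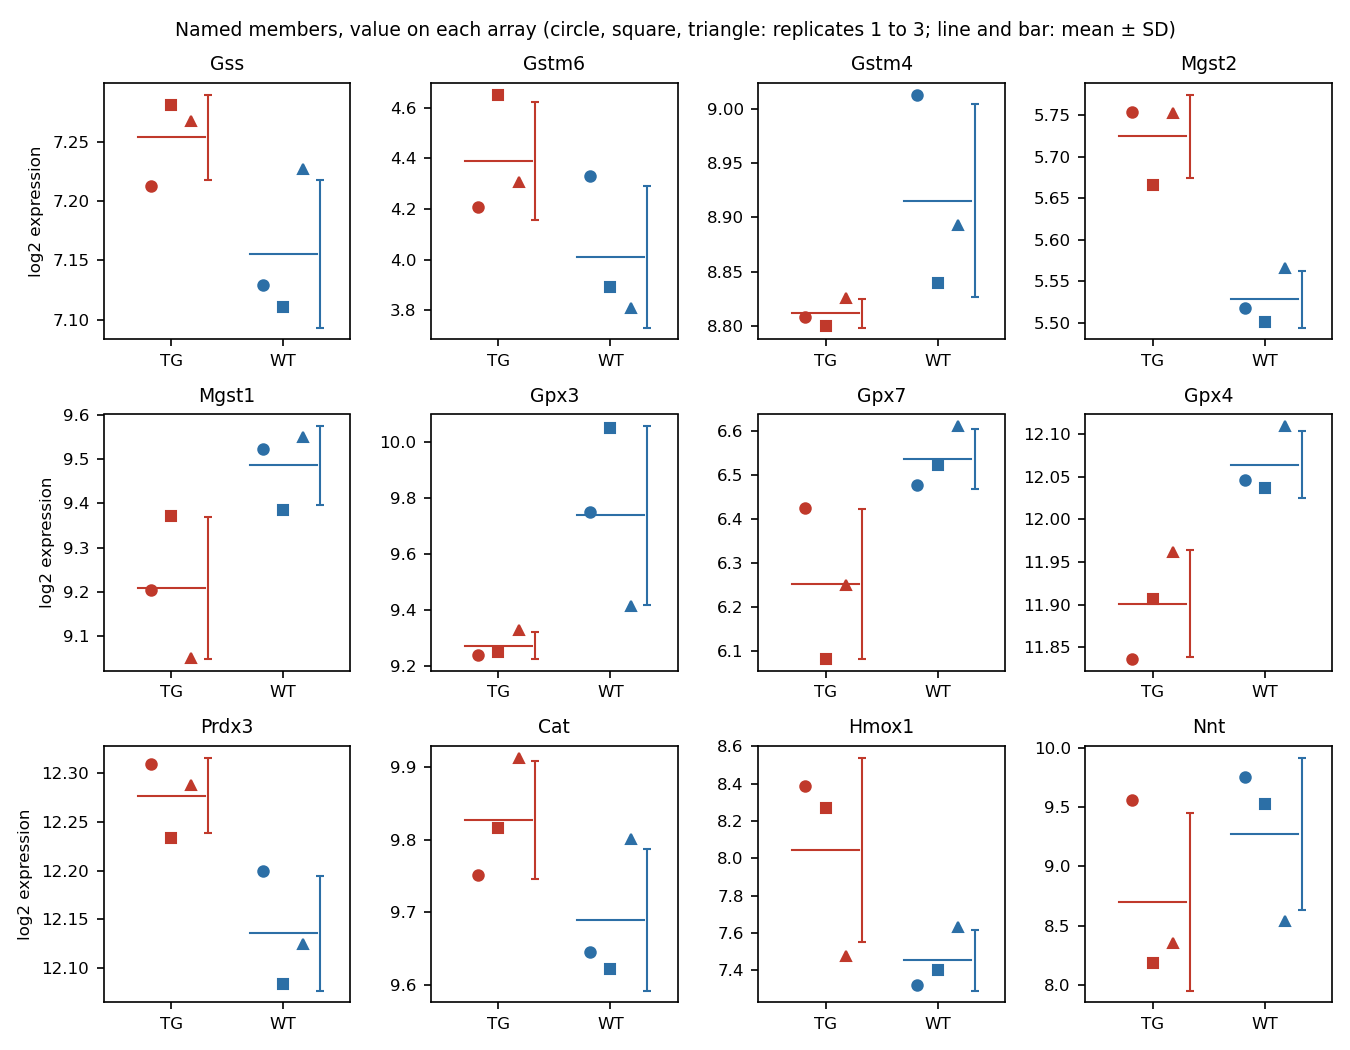
Log2 expression on each array for the 12 genes given with all their values; circle, square and triangle are replicates 1 to 3, and line and bar give the mean ± SD of 3 arrays. Axes differ between panels and do not start at 0. Gpx3, Gpx4, Gpx7, Mgst1 and Gstm4 show TG below WT without overlap, Mgst2 and Prdx3 show TG above WT, and Nnt has high and low arrays within both groups.

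Microsomal glutathione transferases are membrane proteins, and the 3 measured genes went different ways. Mgst2, which can also make leukotriene C4 (probe set 10491952), read 5.75, 5.67 and 5.75 in TG and 5.52, 5.50 and 5.57 in WT. Both groups were tight and did not overlap. The difference was 0.20 (SE 0.06, 95% interval 0.05 to 0.35), or 1.15-fold (limma, adjusted p = 0.710), and it lay between 0.17 and 0.23 under all 14 alternatives in which the gene was tested. Its unadjusted p, 0.017, was 0.057 with an intensity trend and 0.052 with the hepatocyte covariate (limma). Without TG array 1 or TG array 3 it was just over 0.05. The mean signal lay at percentile 36.3 of all genes.

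Mgst1, the abundant liver form that sits in the endoplasmic reticulum and outer mitochondrial membrane (probe set 10542470), went the other way. It read 9.20, 9.37 and 9.05 in TG and 9.52, 9.38 and 9.55 in WT. The highest TG array and the lowest WT array nearly touched. The difference was -0.28 (SE 0.10, 95% interval -0.50 to -0.05; limma, adjusted p = 0.713). All 17 measured hepatocyte markers were lower in TG too, with mean levels of 6.34, 7.62 and 5.48 on TG arrays 1 to 3 and 6.71, 7.24 and 7.26 on the WT arrays. Over all genes 56.2% were below 0. None of the 17 had an unadjusted p under 0.05 (limma), and the groups overlapped for all of them. TG array 3 had the least hepatocyte signal and the lowest Mgst1. TG array 2 had the most hepatocyte signal of all 6 arrays, and its Mgst1 value of 9.37 lay just under the lowest WT value, 9.38. With the mean of the hepatocyte markers as a covariate the difference was -0.20, and without TG array 3 it was also -0.20. The unadjusted p, 0.023 in the main fit, was 0.061 with the covariate and 0.074 without that array (limma). The part of hepatocyte RNA in the Mgst1 result was not tested. Mgst3 was at 0.10 with overlapping groups.

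The cytosolic and mitochondrial glutathione transferases were the largest family, with 19 genes, and none had an unadjusted p under 0.05. Their median difference was 0.0012, with 10 above and 9 below 0. Of them, 14 were within 0.1 of 0. Gstm6 had the smallest p of the family (probe set 10501208), at 4.21, 4.65 and 4.31 in TG and 4.33, 3.89 and 3.81 in WT. WT array 1 overlapped the TG arrays, and the mean signal lay at percentile 14.8 of all genes. The difference was 0.38 (SE 0.16; limma, adjusted p = 0.738).

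The 7 mu-class genes, Gstm1 to Gstm7, follow each other in 1 cluster in the reference gene order (GRCm38.p6) with no other protein-coding gene between them, and they are similar in sequence, so their probe sets may report more than 1 gene. Gstm4 read 8.81, 8.80 and 8.83 in TG and 9.01, 8.84 and 8.89 in WT (probe set 10501235). The TG arrays agreed closely and lay just under the lowest WT array, for a difference of -0.10 (SE 0.07; limma, adjusted p = 0.802). Gstm7 and Gstm5 were at -0.13 and -0.10, Gstm2 at -0.04, Gstm1 at 0.05 and Gstm3 at 0.01, all with overlap. By the probe sets used, 3 of the 7 genes were above and 4 below 0. For Gstm3 the set used was 10362511. A second Gstm3 probe set, 10501218, numbered between the sets of Gstm6 and Gstm2, gave -0.07. That is the opposite sign from the first, both within the spread of the arrays. Whether the 2 sets report the same locus was not tested, so the count for the cluster depends on the set taken.

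Gstp1, the pi-class enzyme, was at 12.09 ± 0.06 (SD, n = 3) across TG arrays and 12.13 ± 0.06 (SD, n = 3) across WT arrays, a difference of -0.04 (95% interval -0.20 to 0.12). Gsta4, which detoxifies the lipid peroxidation product 4-hydroxynonenal, was at -0.05 (95% interval -0.25 to 0.16). Gsta3 was at 0.0013, Gstp3 at 0.03, the kappa enzyme of mitochondria Gstk1 at 0.05 and Gstz1, an enzyme of tyrosine breakdown, at 0.04. The 4 theta genes, Gstt1 to Gstt4, also form an uninterrupted cluster and lay between -0.05 and 0.08. Gsto1 was at 0.07, and Gsto2 at -0.10 with a range of 0.67 within TG and 0.74 within WT. The spread of Gsto2 between mice of 1 group thus exceeded its difference between groups.

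Glutathione itself is made by glutamate-cysteine ligase, whose catalytic and modifier subunits are Gclc and Gclm, and by glutathione synthetase, Gss, and is kept reduced by glutathione reductase, Gsr. All 4 genes lay within 0.1 of 0. Gss had the smallest p (probe set 10488879), with 7.21, 7.28 and 7.27 in TG and 7.13, 7.11 and 7.23 in WT. The WT array 3 value reached into the TG range, and the difference was 0.10 (SE 0.07; limma, adjusted p = 0.803). Gclc was at 0.07 (95% interval -0.15 to 0.29), with TG array 2 highest at 8.67. Gclm was at -0.06 and Gsr at -0.06, both with overlap. The 95% interval of Gclm ran from -0.24 to 0.11, so a difference of that size is not shown to be absent.

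Peroxiredoxins remove peroxides with thioredoxin, sulfiredoxin revives them after overoxidation, and thioredoxin reductases recharge thioredoxin. Of these 9 genes, 8 were above 0 with a median of 0.083. Below 0 were 56.2% of all genes, but 47.1% of the genes above the median level, where all 9 lie. None of the 9 had an unadjusted p under 0.05. The 5 peroxiredoxin genes measured, with the pseudogene Prdx6-ps2 among them, were all above 0 in the probe sets used. A second Prdx2 probe set was at -0.01. The direction of the sets used held with quantile normalization and with a common array median, while Prdx1 turned below 0 without TG array 1 or WT array 2. Prdx3, the mitochondrial peroxiredoxin (probe set 10468869), read 12.31, 12.23 and 12.29 in TG and 12.20, 12.08 and 12.12 in WT. Its groups did not overlap, and the difference was 0.14 (SE 0.07, 95% interval -0.01 to 0.30; limma, adjusted p = 0.746).

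Prdx2, the cytosolic form abundant in red cells, was at 0.08 in the probe set used, and at -0.01 in a second one. Prdx1, the other cytosolic form, was at 0.03 and 0.09 in its 2 probe sets. Whether the 2 sets of Prdx1, or those of Prdx2, report the same locus was not tested. Prdx4, of the endoplasmic reticulum, was at 0.08. The pseudogene Prdx6-ps2 was at 0.13, and its probe set may also report other Prdx6 transcripts. Txnrd1, the cytosolic reductase with a match to the response element, was at 0.11 (95% interval -0.10 to 0.32). Txnrd2, of mitochondria, and Txnrd3 were at 0.01 and -0.03.

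Among the superoxide dismutases and catalase, no gene had an unadjusted p under 0.05. Cat, the peroxisomal enzyme (probe set 10485466), read 9.75, 9.82 and 9.91 in TG and 9.64, 9.62 and 9.80 in WT. WT array 3 fell within the TG values, and the difference was 0.14 (SE 0.08; limma, adjusted p = 0.791). The mitochondrial Sod2 was at 12.21 ± 0.06 (SD, n = 3) across TG arrays and 12.18 ± 0.08 (SD, n = 3) across WT arrays, with a 95% interval of the difference from -0.14 to 0.20. The cytosolic Sod1 was at -0.04 and the extracellular Sod3 at -0.14, both with overlap.

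Hmox1, the inducible enzyme that breaks down haem, had the largest difference above 0 among the 50 genes, and it rested on TG arrays 1 and 2 (probe set 10572897). It read 8.38, 8.27 and 7.48 in TG and 7.32, 7.40 and 7.63 in WT. TG array 3 lay within the WT range, so the groups overlapped. The means were 8.04 ± 0.49 (SD, n = 3) across TG arrays and 7.45 ± 0.16 (SD, n = 3) across WT arrays, a difference of 0.59 (SE 0.23, 95% interval 0.06 to 1.12), or 1.51-fold (limma, adjusted p = 0.738). Leaving out TG array 1 or 2 gave 0.42 or 0.48, and leaving out TG array 3 gave 0.88.

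Macrophages make much Hmox1, and their markers were not alike across the arrays. Cd68, picked out after its values were seen, read 7.21, 7.49 and 6.34 in TG and 6.47, 6.49 and 6.54 in WT. It too was high on TG arrays 1 and 2 and not on TG array 3. The integrin gene Itgam read 5.76, 5.61 and 5.53 in TG and 5.14, 5.17 and 4.88 in WT, higher on every TG array, TG array 3 included. Of the 14 markers, Itgam, Tyrobp and Ccr2 had an unadjusted p under 0.05 (limma), at 0.57, 0.26 and 0.56. On that higher side 1.96% of all genes reached the level. C1qa, C1qb, C1qc, Lyz2, Cd163, Fcer1g and Cd14 were highest on WT array 2, and Mrc1 on WT array 1. The whole list had 12 of 14 markers above 0, where 56.2% of all genes were below 0. Its mean levels were 6.74 to 7.06 on the TG and 6.58 to 6.94 on the WT arrays. Csf1r and Adgre1 were at 0.05 and 0.06. The part of these cells in the Hmox1 result was not tested. In bulk muscle, more cells of a type and more RNA per cell cannot be told apart.

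Srxn1, the sulfiredoxin gene, also varied most within TG, at 9.36, 9.86 and 8.79, beside 8.94, 9.05 and 9.28 in WT. TG array 2 was the highest and TG array 3 the lowest of all 6. The difference was 0.24 (SE 0.25, 95% interval -0.33 to 0.82). Nqo1, the quinone reductase often used as a readout of NRF2, read 7.86, 7.72 and 8.22 in TG and 7.94, 7.57 and 7.97 in WT. Its highest value was on TG array 3, where Hmox1 and Srxn1 were low, and its difference was 0.10 (95% interval -0.26 to 0.46). Of the 7 genes best known as NRF2 targets, Gclc, Gclm, Gsr, Txnrd1, Srxn1, Hmox1 and Nqo1, a group drawn up after the values were seen, 5 were above 0, and Hmox1 alone had an unadjusted p under 0.05. On that higher side 1.96% of all genes reached the level. Of the genes above the median level, where all 7 lie, 47.1% were below 0.

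**Figure D3:**
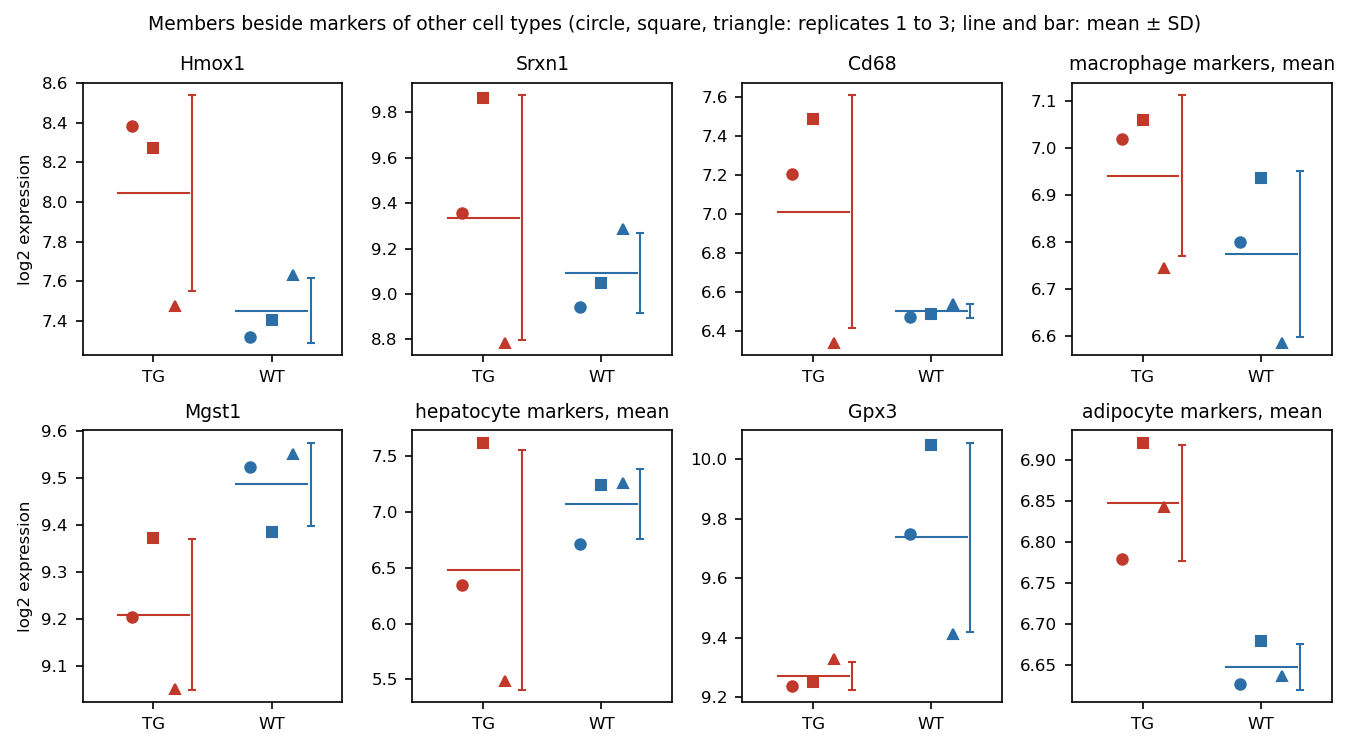
Log2 expression on each array for Hmox1, Srxn1, Mgst1 and Gpx3 beside Cd68 and the mean of 3 marker lists; circle, square and triangle are replicates 1 to 3, and line and bar give the mean ± SD of 3 arrays. Axes differ between panels and do not start at 0. Hmox1 and Cd68 are high on TG arrays 1 and 2 and not on TG array 3, Mgst1 and the hepatocyte mean are lowest on TG array 3, and the adipocyte mean lies higher in TG while Gpx3 lies lower.

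Nnt encodes the transhydrogenase of the inner mitochondrial membrane, which makes the NADPH that mitochondrial glutathione and thioredoxin systems use. Its values split the mice within both groups (probe set 10412394). TG array 1 read 9.56, while TG arrays 2 and 3 read 8.18 and 8.36. WT arrays 1 and 2 read 9.75 and 9.53, while WT array 3 read 8.54. Thus 3 arrays stood at 9.53 or above and 3 at 8.54 or below, with nothing between, and both groups held high and low arrays.

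The within-group SD of Nnt was 0.70, at percentile 99.8 of all genes, whose median was 0.11. The group difference was -0.57 (SE 0.42, 95% interval -1.55 to 0.40; limma, adjusted p = 0.811). Leaving out TG array 1, the high one, gave -1.0, and leaving out WT array 3, the low one, gave -0.94. Leaving out any of the other 4 arrays gave -0.45 to -0.32. The spread within groups was therefore larger than the difference between them. As background, the C57BL/6J strain carries a deletion within Nnt that many other strains lack. The labels name no strain, and whether any of these mice carried it was not tested.

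Among the 50, 9 genes had a within-group SD above the 90th percentile of all genes, namely Nnt, Srxn1, Hmox1, Gsto2, Gstm6, Gstp3, Nqo1, Gstt1 and Gpx3. By definition 10% of all genes lie above it. Hmox1 was high on TG arrays 1 and 2 alone, Gpx3 was highest on WT array 2, Gstt1 on WT array 1 and Gsto2 on WT array 3. The median within-group SD of the 50 genes was 0.11, equal to that of all genes to 2 decimals.

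**Figure D4:**
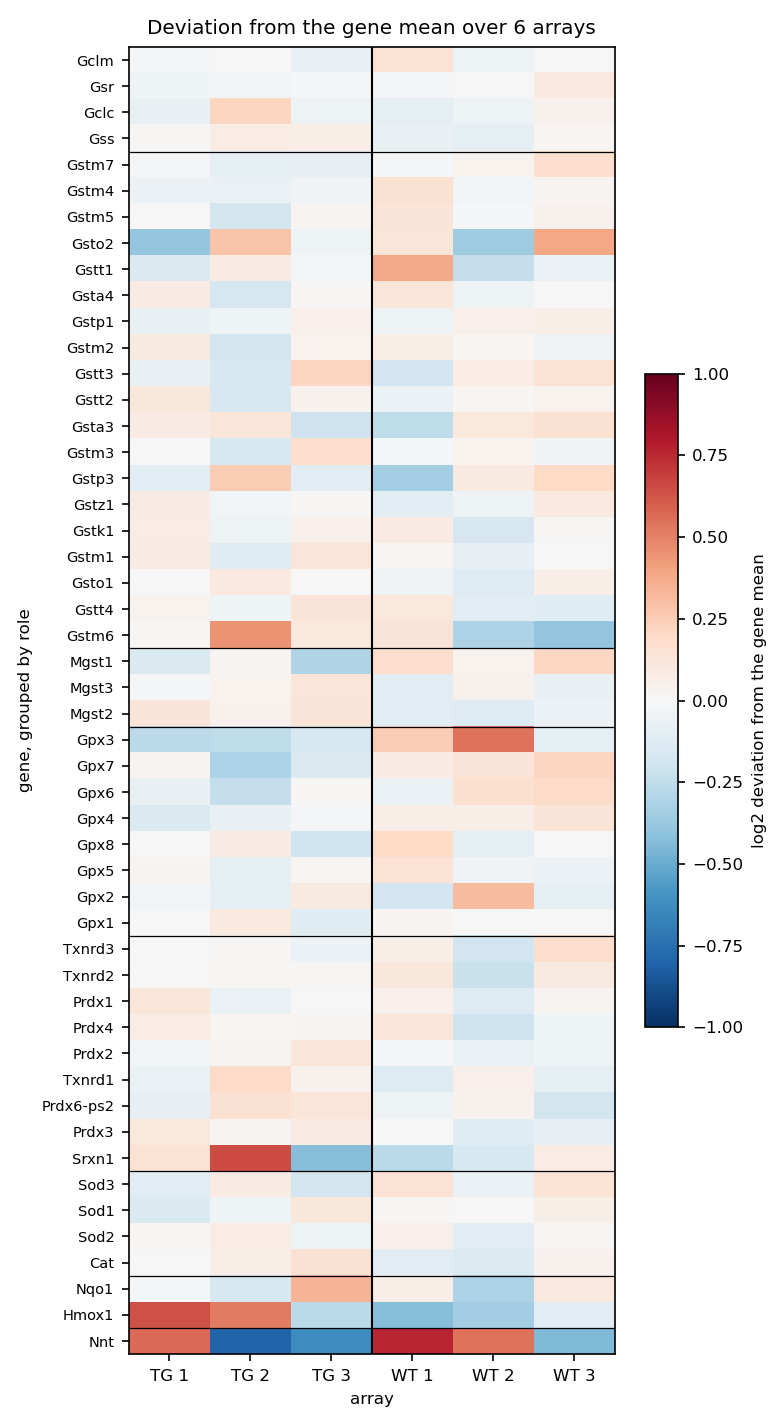
Deviation of each of the 50 genes from its mean over the 6 arrays, in log2 units, with rows grouped by role and columns by array; red is above and blue below the gene mean. The rows of Nnt, Hmox1 and Srxn1 carry the deepest colours, in patterns that differ from each other, and most other rows are pale.

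The genes around this system were read from 6 lists with 83 of 86 genes measured. None passed over all genes. At an unadjusted p under 0.05 there were 3 higher, Tkt, Slc40a1 and Tfrc, and 2 lower, Msrb1 and Chac1. These 5 were 6.02% of the genes measured, close to the 6.75% of all genes, and the groups did not overlap for 13 of the 83, or 15.7%, beside 12.3% of all genes. The values of the 5 are given below as descriptions. The count of 5 was 8 without TG array 3, 8 with an intensity trend and 9 with the hepatocyte covariate.

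The 15 regulators had 8 differences above and 7 below 0, and none reached an unadjusted p under 0.05. Nfe2l2 itself read 9.15, 9.10 and 9.23 in TG and 9.23, 9.32 and 9.08 in WT. Its groups overlapped, with a difference of -0.05 (SE 0.08; limma, adjusted p = 0.924), and it was 0.0038 without WT array 2. Keap1 read 9.19, 9.20 and 9.29 in TG and 9.30, 9.25 and 9.32 in WT. These overlapped as well, with a difference of -0.06 (SE 0.07; limma, adjusted p = 0.867). These are transcript levels, and NRF2 is controlled mainly at the protein level.

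Of 14 thioredoxin and glutaredoxin genes, Msrb1 alone had an unadjusted p under 0.05. Msrb1, a selenoprotein that repairs oxidised methionine (probe set 10442596), read 11.68, 11.71 and 11.61 in TG and 11.96, 11.95 and 12.00 in WT. The groups were tight and well apart, with a difference of -0.30 (SE 0.06; limma, adjusted p = 0.546), between -0.32 and -0.27 under the 15 alternatives. Of 21 measured genes for glutathione supply, turnover and transport, Chac1, which degrades glutathione (probe set 10474972), alone did so. It read 9.54, 9.49 and 10.27 in TG and 10.17, 10.56 and 10.14 in WT. TG array 3 lay among the WT arrays, and the difference was -0.52 (SE 0.22; limma, adjusted p = 0.738).

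Among 11 measured genes for NADPH supply, the transketolase gene Tkt of the pentose phosphate pathway (probe set 10413542) read 7.00, 6.99 and 6.97 in TG and 6.76, 6.72 and 6.72 in WT. Each group was narrow and they did not overlap, with a difference of 0.25 (SE 0.06; limma, adjusted p = 0.660). The 10 other genes of the list, with Pgd, Me1 and Idh2 among them, had an unadjusted p above 0.05.

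Of 10 genes for iron, haem and metals, 7 were above 0 and 2 had an unadjusted p under 0.05, both higher, as 1.96% of all genes did on that side. The groups did not overlap for 5 of the 10, beside 12.3% of all genes. Slc40a1, Tfrc, Ccs and Blvrb were higher in TG, as 4.52% of all genes were. Fth1 was lower, at -0.03, as 7.76% of all genes were. Slc40a1, the iron exporter ferroportin (probe set 10354374), read 10.39, 10.41 and 10.47 in TG and 10.18, 10.18 and 10.12 in WT. Tfrc, the transferrin receptor that takes iron up (probe set 10435075), read 11.48, 11.75 and 11.56 in TG and 11.38, 11.30 and 11.23 in WT. Both genes kept TG above WT without overlap, at 0.26 (SE 0.06; limma, adjusted p = 0.660) and 0.30 (SE 0.09; limma, adjusted p = 0.679). Of the 12 measured genes for enzymes that make superoxide, hydrogen peroxide or nitric oxide, or for their subunits, 6 lay on either side of 0. None had an unadjusted p under 0.05.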

How the data were processed

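The authors deposited log2 values of 35557 probe sets for 6 arrays; that the scale is log2 follows from their range. The sources used here do not give their summarization or normalization. With array medians within 0.0571, no further scaling was applied. Columns left out numbered 0. Gene symbols came from the platform annotation, and probe sets with 1 symbol gave 19938 genes, each by its probe set of highest mean. TG and WT arrays (3 each, 1 mouse per array, numbered in deposit order) were compared by a linear model with moderated variances (limma 3.58.1, lmFit and eBayes, R 4.3.3), two-sided, with Benjamini-Hochberg adjustment over all genes at a threshold of 0.05, after a check on simulated data. Unadjusted p-values are from the same fit. Intervals are at 95%, and the number of arrays limits the precision.

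The genes, lists and alternatives were chosen with earlier results of these data known. All values on every array are given for those of the 50 genes with an unadjusted p under 0.05 or without overlap and for the gene of smallest p in each role, with Nnt always included. Of the surrounding genes they are given for those with an unadjusted p under 0.05 and for Nfe2l2 and Keap1. Srxn1, Nqo1, Cd68, Itgam and the second Gpx4 probe set are given in the same way and were chosen after their values were seen. Marker lists for erythroid, endothelial and fibroblast cells were also read, with 2 of 5, 2 of 8 and 6 of 8 genes above 0. Over all genes 56.2% were below 0, and only 5 of the 10 listed erythroid genes were measured. Figures were drawn with matplotlib 3.10.9.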

Additional observations from a re-analysis of the deposited data

How the results depend on the processing

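Under the 15 alternatives none of the 50 genes passed the threshold. Of 282 values of the 19 named genes, 281 kept their direction and stayed on their side of the threshold. Most of these genes were named for their values in the main fit, where none passed. An intensity trend or robust moderation cannot change a difference, so the count is a weak check. Nfe2l2, at -0.05, ranged from -0.11 to 0.0038 without each array and was above 0 without WT array 2. Over all genes the count past the threshold, 1, became 7 with an intensity trend, 2 among the genes above the median level, and 0 with robust moderation, a common array median or the hepatocyte covariate, and it was 0 without each array in turn. The median difference of the 50 genes, 0.0013, ranged from -0.022 to 0.047 without each array, the highest without WT array 3. Counts at an unadjusted p under 0.05 ranged from 1 to 2 on the higher side and from 2 to 4 on the lower side without each array, and the lower count was 2 with the hepatocyte covariate. That of the surrounding genes, 5, ranged from 4 to 8 without each array, and was 8 with an intensity trend and 9 with the hepatocyte covariate. Where calls were fewer without an array, fewer arrays were tested; otherwise the cause was not tested. Among genes above the median level 37 of the 50 were left. No paired analysis was possible because the labels give no replicate numbers shared by the groups. Signal over background could not be assessed from the deposited values.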
